A study of Mus musculus with 35 samples.

Results

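The genes described are 10 transcripts that mark neutrophils, their entry into tissue and their granules: S100a8, S100a9, Ly6g, Csf3r, Cxcr2, Retnlg, Ngp, Camp, Ltf and Acod1. They were chosen by symbol from a table of 36106 genes, and all 10 were found, each with reads in at least 1 of 35 skin libraries. The table comes from a study of radiation dermatitis in mice of the inbred strain C57BL/6J, all female and 10 weeks old. Skin of the left flank had received 25 Gy at 3.6 Gy per min over 420 seconds and was shaved afterwards. RNA of whole skin was sequenced in 9 groups: radiated skin at weeks 1, 2, 3 and 4 (4 libraries a week), control skin at the same weeks (4 libraries a week) and sham skin from 3 mice with no radiation. A radiated and a control library that share week and number were treated as 1 mouse, which gives the 19 mice of the design text. The labels do not say where on the body control skin was taken, every week is another set of mice, and no sequencing batch is named.

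Neutrophils leave the bone marrow and enter inflamed skin along gradients of CXC chemokines, which they sense through CXCR2, and they depend on G-CSF, sensed through CSF3R. S100A8 and S100A9 pair to form calprotectin, which makes up much of the neutrophil cytosol, and stressed keratinocytes and monocytes make it too. The granules are filled in the marrow in a fixed order, so that mRNA of primary granule proteins such as myeloperoxidase, and of secondary granule proteins such as lactoferrin, cathelicidin and NGP, belongs mostly to precursors, whereas S100a8, S100a9, Csf3r, Cxcr2 and Retnlg mRNA is carried by mature cells. ACOD1 makes itaconate from cis-aconitate in activated macrophages and neutrophils.

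The members lie on 7 chromosomes (GRCm38, GENCODE M21, all protein coding, with no other annotated gene overlapping them). S100a8 (chr3:90668978-90670035) and S100a9 (chr3:90692632-90695721) are neighbours on opposite strands, and Camp (chr9:109847379-109849617), Ngp (chr9:110419747-110423012) and Ltf (chr9:111019271-111042767) share chromosome 9. The others are Csf3r (chr4:126024550-126044440), Cxcr2 (chr1:74153989-74161246), Ly6g (chr15:75155240-75159126), Retnlg (chr16:48872621-48874496) and Acod1 (chr14:103046977-103056573). RefSeq promoters of GRCm38.p6, from 250 bases before to 50 bases after the annotated start, were matched for 10 of 10 members. Those printed belong to 4 members whose RNA was called higher in radiated skin of weeks 3 and 4 against both control and sham skin (S100a8, S100a9, Csf3r, Acod1) and, for contrast, to a pair of granule members that were not (Ngp, Camp). All read 5′ to 3′ on the strand of the gene, and capitals mark a match to a searched motif.
S100a8 promoter, chr3:90668821-90669120, plus strand: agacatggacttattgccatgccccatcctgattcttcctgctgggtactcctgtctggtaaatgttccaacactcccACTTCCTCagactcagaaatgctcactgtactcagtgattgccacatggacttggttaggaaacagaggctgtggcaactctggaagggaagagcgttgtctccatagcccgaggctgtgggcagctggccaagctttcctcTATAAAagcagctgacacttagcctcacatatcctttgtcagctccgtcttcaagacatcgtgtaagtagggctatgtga
S100a9 promoter, chr3:90695672-90695971, minus strand: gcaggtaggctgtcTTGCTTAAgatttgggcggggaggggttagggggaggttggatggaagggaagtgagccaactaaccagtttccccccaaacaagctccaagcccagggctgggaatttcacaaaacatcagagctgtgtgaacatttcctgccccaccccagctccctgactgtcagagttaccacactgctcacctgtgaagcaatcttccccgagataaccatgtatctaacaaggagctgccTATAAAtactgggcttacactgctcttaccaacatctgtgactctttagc
Csf3r promoter, chr4:126024409-126024708, plus strand: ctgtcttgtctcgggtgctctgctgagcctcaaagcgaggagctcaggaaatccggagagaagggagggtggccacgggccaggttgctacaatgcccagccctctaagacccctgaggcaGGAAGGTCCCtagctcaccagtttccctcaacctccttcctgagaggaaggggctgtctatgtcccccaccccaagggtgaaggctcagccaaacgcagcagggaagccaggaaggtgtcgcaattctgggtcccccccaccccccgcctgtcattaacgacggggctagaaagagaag
Acod1 promoter, chr14:103046762-103047061, plus strand: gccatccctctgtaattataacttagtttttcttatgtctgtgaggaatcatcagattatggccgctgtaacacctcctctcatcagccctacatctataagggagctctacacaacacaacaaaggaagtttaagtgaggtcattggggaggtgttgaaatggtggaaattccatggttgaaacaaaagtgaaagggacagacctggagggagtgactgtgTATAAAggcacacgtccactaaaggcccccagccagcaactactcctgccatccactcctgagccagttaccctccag
Ngp promoter, chr9:110419558-110419857, plus strand: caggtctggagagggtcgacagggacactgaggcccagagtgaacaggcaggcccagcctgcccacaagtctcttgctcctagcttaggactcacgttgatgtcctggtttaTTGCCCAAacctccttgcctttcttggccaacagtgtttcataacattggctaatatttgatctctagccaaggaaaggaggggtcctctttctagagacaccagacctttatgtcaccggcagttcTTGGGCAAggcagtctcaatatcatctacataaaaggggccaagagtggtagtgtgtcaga
Camp promoter, chr9:109849407-109849706, minus strand: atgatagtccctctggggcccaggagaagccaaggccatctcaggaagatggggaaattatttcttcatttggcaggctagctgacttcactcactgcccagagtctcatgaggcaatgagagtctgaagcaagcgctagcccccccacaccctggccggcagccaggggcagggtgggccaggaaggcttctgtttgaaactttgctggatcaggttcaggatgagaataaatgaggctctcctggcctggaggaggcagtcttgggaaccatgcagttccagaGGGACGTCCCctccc
The motifs searched on both strands were the C/EBP core TTGCNNAA, the ETS site of the PU.1 type GAGGAAGT, the AP-1 site TGANTCA, the NF-kB consensus and the TATA box TATAAA, which occur in 10.797%, 3.202%, 7.808%, 8.459% and 13.616% of 32851 promoters of this length. C/EBP factors and PU.1 drive granulocyte genes. The Ngp promoter holds the C/EBP core at 2 places, starting at -138 and -11 from the annotated start. S100a9 holds it at -236, and the promoters of Ly6g, Retnlg and Ltf hold it as well. S100a8 has the PU.1-type site at -172 and a TATA box at -30, the promoters of Ly6g hold both as well, and Acod1 has a TATA box at -28. In S100a9 the TATA letters begin at the first base of the annotated transcript. The NF-kB consensus matches in Csf3r at -129 and in Camp at 36, and Cxcr2 holds none of the 5 motifs. These matches describe letters only, and the lack of one says nothing about a factor.

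Library totals ran from 17362853 to 28487885 estimated counts, so a floor of 3 counts corresponded to 0.114 to 0.175 CPM (counts per 1000000 of the scaled library total). Levels below that range are not distinguishable from 0 at this depth, and floors cover counting error only. In 35 libraries, Csf3r and Cxcr2 had values that were not whole in every library, so part of their reads may have been split with other annotated genes and both are less certain for it. The other members had whole values in every library. In the 19 libraries without radiation, Cxcr2 lay between 4.16 and 10.1 CPM and Csf3r between 0.645 and 7.78 CPM. S100a8 reached at most 0.884 CPM, S100a9 1.28 CPM, Acod1 0.730 CPM and Retnlg 0.461 CPM there, and Ly6g was at 0 in 17 of the 19. Per length, the most abundant member in sham skin was Cxcr2, at 2.30 ± 0.183 CPM per kb of exon (SD, n = 3), followed by S100a8 at 0.478 ± 0.170 and Csf3r at 0.437 ± 0.134, and S100a8 and Csf3r differed by less than their spread. In radiated skin of week 4 the order was another, with S100a9 at a mean of 215 CPM per kb, S100a8 at 69.8, Csf3r at 27.7, Cxcr2 at 24.5, Retnlg at 11.0, Acod1 at 7.00, Ngp at 1.14 and Camp, Ly6g and Ltf below. In week 3 the means were 151 for S100a9, 53.1 for S100a8, 35.9 for Retnlg, 34.0 for Csf3r, 26.0 for Cxcr2, 14.5 for Acod1 and 11.9 for Ngp. Those of week 3 rest in large part on radiated replicate 1. Without it, S100a9 was at 60.5, Csf3r at 29.3, S100a8 at 23.0, Cxcr2 at 16.4, Acod1 at 10.9, Retnlg at 3.49 and Ngp at 0.571 CPM per kb, so that S100a8 came after Csf3r.

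**Figure D1:**
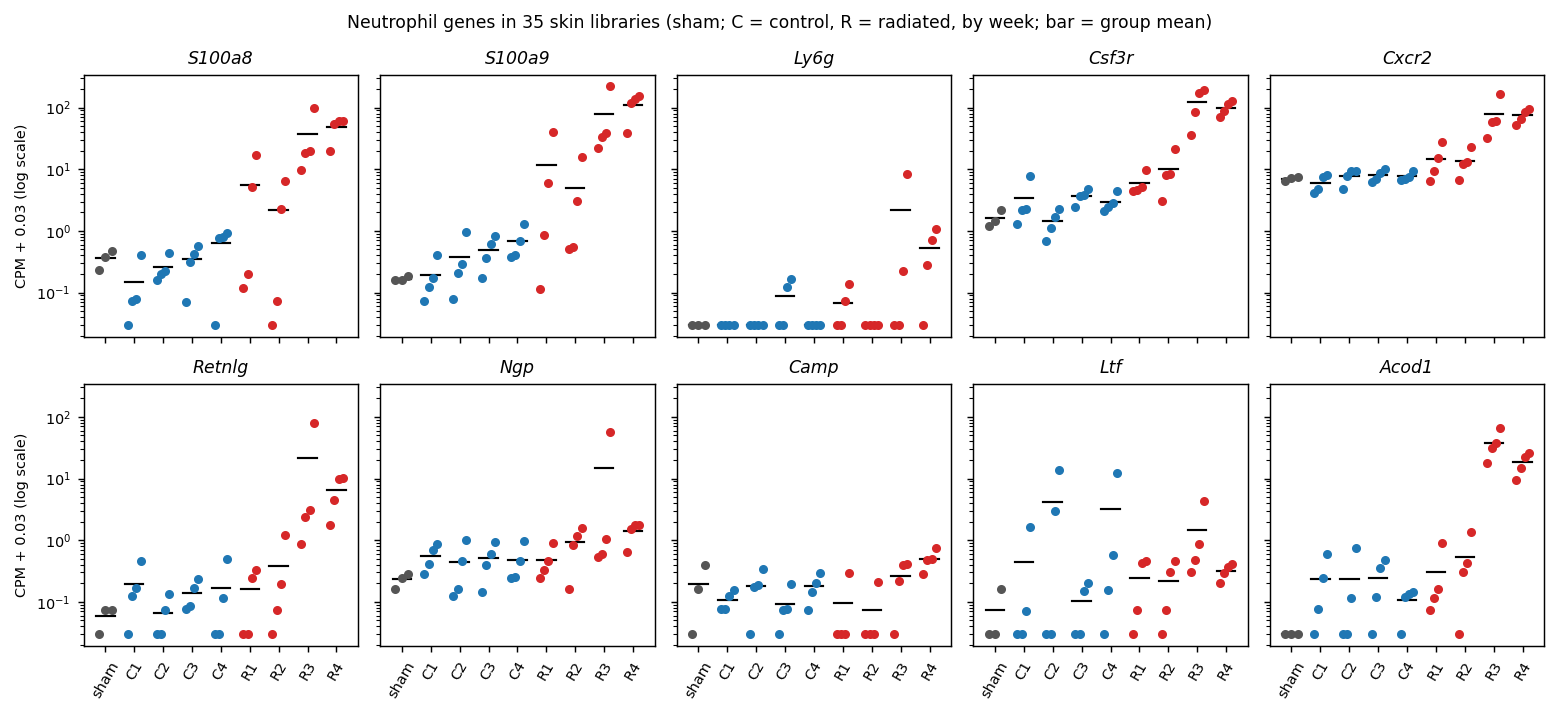
Level of each of the 10 genes in every library, in CPM with 0.03 added so that 0 can be drawn on the log scale. Points are libraries, bars are group means, C and R are control and radiated skin of weeks 1 to 4. In weeks 3 and 4 the radiated libraries of S100a8, S100a9, Csf3r, Cxcr2, Retnlg and Acod1 all sit above the 19 libraries of sham and control skin, whereas Camp and Ltf overlap with them.

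In weeks 3 and 4, RNA of both calprotectin subunits, of the G-CSF and chemokine receptors, of Retnlg and of Acod1 was higher in radiated than in control skin, from 9.79-fold (Cxcr2, week 4) to 224-fold (Acod1, week 4). Of 7 members that passed the filter on low counts in week 3, 6 had an adjusted p under 0.05 in edgeR's quasi-likelihood test, all higher, beside 13.6% of all tested genes called higher. In week 4 it was 7 of 7 that passed the filter, all higher, beside 24.2% of all genes. A member passes the filter through the group where it is high, so these counts are not shares of the 10. Over all 10 members and without a test, 6 had every radiated library above all 19 libraries without radiation in both weeks, beside 6.34% of tested genes in week 3 and 9.06% in week 4. In week 3 calls over all genes were 2408 higher and 2397 lower, and 4054 and 1270 with total-count scaling, which moved the median of all genes by 0.24 on the log2 scale. Smaller changes in that week depend on the scaling. In whole skin, a change in the number of cells of a type and a change in RNA per cell cannot be told apart.

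S100a8 stood at 99.5, 18.4, 19.8 and 9.71 CPM in the radiated libraries of week 3 (replicates 1 to 4), and at 60.9, 53.2, 19.9 and 59.9 CPM in week 4. Control skin had 0.540, 0.0410, 0.279 and 0.400 CPM in week 3 and 0, 0.752, 0.769 and 0.884 CPM in week 4. No radiated library of these weeks came near the control range. On the log2 scale S100a8 was higher by 6.91 in week 3 (SE 0.95, adjusted p 0.00181) and by 6.27 in week 4 (SE 0.58, adjusted p 2.34e-05).

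S100a9, the partner subunit, was at 220, 33.7, 39.1 and 21.9 CPM in radiated skin of week 3, and at 154, 118, 39.1 and 137 CPM in week 4. Control values were 0.585, 0.328, 0.139 and 0.799 CPM in week 3 and 0.370, 0.354, 1.28 and 0.653 CPM in week 4. The libraries with much S100a8 were those with much S100a9, and the groups did not overlap. Its log2 fold changes were 7.47 (SE 0.96, adjusted p 0.00156) and 7.37 (SE 0.55, adjusted p 7.66e-06). In the 12 radiated libraries with at least 40 counts of S100a8, S100a9 had 1.18 to 2.54 counts for each count of S100a8, with a median of 2.22. Per kb of exon that ratio ran from 1.57 to 3.37, with a median of 2.95.

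Csf3r, the receptor for G-CSF, was measured at 174, 85.1, 195 and 36.5 CPM in radiated skin of week 3 and at 115, 70.4, 88.9 and 126 CPM in week 4. Control skin held 3.78, 2.38, 3.67 and 4.68 CPM in week 3, and 2.43, 4.33, 2.78 and 2.11 CPM in week 4. The lowest radiated library was several times above the highest control library. The log2 fold changes were 5.12 (SE 0.54, adjusted p 0.000859) and 5.11 (SE 0.27, adjusted p 2.11e-06).

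Cxcr2, the receptor for CXCL1, CXCL2 and CXCL5, was at 168, 58.3, 59.9 and 31.6 CPM in radiated skin of week 3 and 95.4, 65.6, 52.4 and 85.3 CPM in week 4. Control skin lay between 6.18 and 10.1 CPM in week 3 and between 6.76 and 9.48 CPM in week 4. Cxcr2 therefore had the highest starting level among these genes and the smallest change that was called in week 3, with log2 fold changes of 3.35 (SE 0.49, adjusted p 0.00217) and 3.29 (SE 0.21, adjusted p 3.65e-06).

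Acod1, the itaconate enzyme, was at 66.0, 37.1, 30.7 and 18.0 CPM in radiated skin of week 3 and at 26.4, 9.50, 14.8 and 22.7 CPM in week 4. In control skin it never exceeded 0.457 CPM in week 3 or 0.115 CPM in week 4, close to the floor. The fitted log2 fold changes were 7.53 (SE 0.72, adjusted p 0.000713) and 7.81 (SE 0.53, adjusted p 5.02e-06), and that of week 3 was 8.12 without control replicate 4. Retnlg, a secreted resistin-like protein of neutrophils, was at 79.0, 2.38, 3.01 and 0.83 CPM in week 3 and at 10.1, 1.71, 4.40 and 9.95 CPM in week 4, against at most 0.205 and 0.461 CPM in control skin. A single library held nearly all the Retnlg reads of week 3. The log2 fold changes were 7.50 (SE 1.74, adjusted p 0.0125) and 5.40 (SE 0.89, adjusted p 0.000791; 7.53 without control replicate 4 of week 4).

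**Figure D2:**
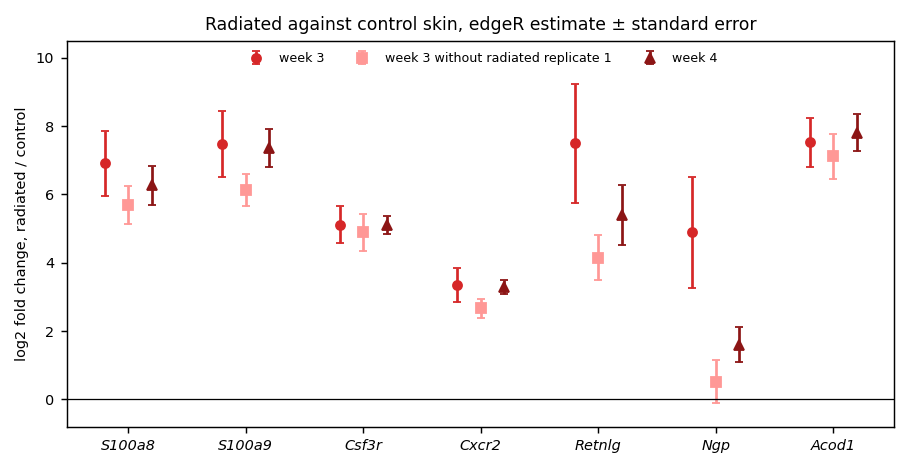
Fitted log2 fold change of radiated over control skin, with its standard error as bars, for the 7 genes that passed the filter. Circles are week 3, squares week 3 without radiated replicate 1, triangles week 4. Csf3r and Acod1 moved little without that library, whereas Ngp fell from 4.89 to 0.52 and Retnlg from 7.50 to 4.14.

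Among the secondary granule members, fewer libraries were high. Ngp, a cathelicidin-related protein, was at 56.2, 0.559, 1.03 and 0.506 CPM in radiated skin of week 3, where control skin had 0.900, 0.573, 0.372 and 0.114 CPM. Apart from replicate 1, the radiated libraries overlapped with the controls, and the difference of week 3 was not called (4.89 on the log2 scale, SE 1.64, adjusted p 0.0514). In week 4 Ngp was at 1.71, 0.621, 1.72 and 1.52 CPM against 0.212, 0.221, 0.940 and 0.423 CPM, a rise of 1.61 on the log2 scale (SE 0.52, adjusted p 0.0279; 2.23 without control replicate 3). That call was lost in 6 of 8 fits that left out 1 library, with an adjusted p of up to 0.0704 without control week 4 replicate 2, and in the fit of all 35 libraries (adjusted p 0.236). For week 3 the alternatives went both ways, with an adjusted p of 0.0473 without the filter, 0.0362 with total-count scaling, 0.00101 in the fit of all 35 libraries and 0.140 with the mouse as a block.

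Camp, the cathelicidin precursor, did not pass the filter against control skin in any week. Its radiated values in week 4 were 0.256, 0.465, 0.712 and 0.446 CPM, beside 0.265, 0.0442, 0.171 and 0.115 CPM in control skin, so that the lowest radiated library lay inside the control range. Its adjusted p in week 4 was 0.0662 in edgeR without the filter and 0.0483 in DESeq2. When leaving out 1 library at a time, it was tested in 5 of 8 edgeR fits and called higher in 2 of them. Ly6g, a surface protein used to identify mouse neutrophils, did not pass it either. Radiated skin of week 4 held 0.683, 0, 0.251 and 1.03 CPM of Ly6g and control skin none, which makes it at least 14.3-fold higher with a floor of 3 counts over the control group, and at least 9.13-fold without radiated replicate 4. Its adjusted p in week 4 was 0.0214 in edgeR without the filter, 0.0579 in the fit of all 35 libraries and 0.00149 in DESeq2. In week 3 it was 0.0840 without the filter and 0.0399 in the fit of all 35 libraries, so both calls depend on the fit. Ly6g belongs to a multigene family whose members can share reads, although its counts were whole.

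Radiated replicate 1 of week 3 stood apart from the other 34 libraries. It had the highest level of all libraries for 7 of the 10 members. In that week it held 97.8% of the summed Ly6g level, 96.4% of Ngp, 92.7% of Retnlg, 67.5% of S100a8 and 69.9% of S100a9, but 43.5% of Acod1 and 35.4% of Csf3r. Ly6g was at 8.32 CPM there and at 0, 0.190 and 0 CPM in replicates 2 to 4. Among the other 3 libraries of that week S100a8, S100a9 and Acod1 were still far above control skin.

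Without that library, the 6 calls of week 3 remained: S100a8 at 5.70, S100a9 at 6.13, Csf3r at 4.90, Cxcr2 at 2.67, Retnlg at 4.14 and Acod1 at 7.12 on the log2 scale, with adjusted p between 0.00124 and 0.00527, beside 22.8% of all genes called in either direction. Ngp was at 0.52 (adjusted p 0.589). Summed over 6 red blood cell genes, the same library held 96.0 CPM, the highest of its group, which ranged from 32.8 CPM, while sham skin ranged from 77.7 to 119 CPM. Its summed keratinocyte level (7 genes) was 5730 CPM, the lowest of its group, which reached 23670 CPM. The part of either in these results was not tested.

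**Figure D3:**
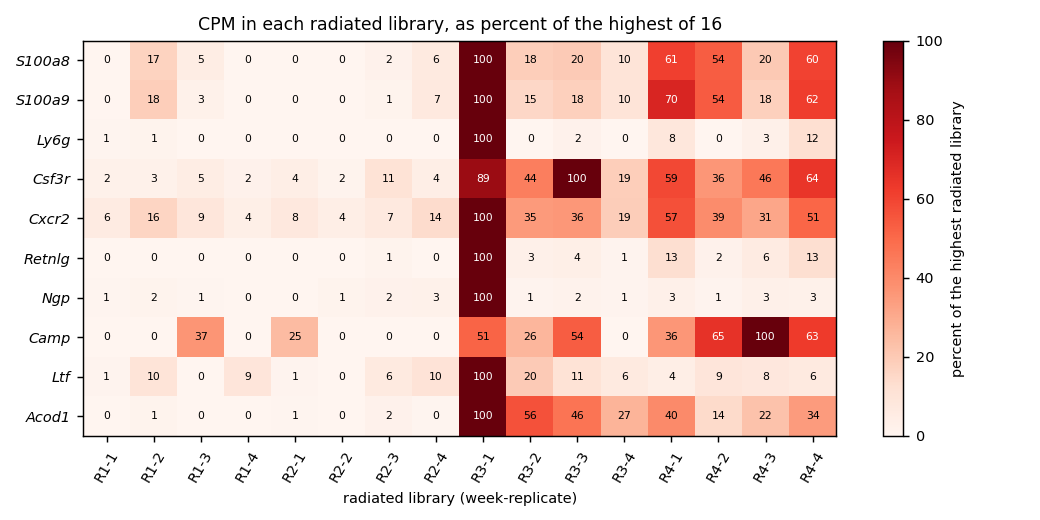
Each of the 16 radiated libraries as a percent of the highest radiated library of that gene, in CPM; rows are genes and columns are week and replicate. Replicate 1 of week 3 is at 100 percent for 8 genes, and in the rows of Ly6g, Retnlg and Ngp no other library exceeds 12.8 percent.

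Weeks 1 and 2 asked when these transcripts first differed. Against control skin, 0 of the 3 members that passed the filter in week 1 and 0 of 4 in week 2 were called by edgeR, beside 0% and 0.00577% of all genes called higher. At an unadjusted p under 0.05 it was 1 member in week 1 (14.1% of all genes) and 3 in week 2 (13.8%). S100a8 and S100a9 did not pass the filter in week 1. For 0 members were all 4 radiated libraries above the 19 libraries without radiation in either week, beside 0.199% and 0.19% of genes. With the mouse as a block, 2 members were called in week 2, beside 3.7% of all genes: S100a9 (log2 fold change 3.31, adjusted p 0.0297) and Csf3r (2.69, adjusted p 0.00566). Without the block these were 3.84 (SE 1.21, adjusted p 0.210) and 2.83 (SE 0.59, adjusted p 0.126). In week 2 Csf3r was also called by DESeq2 (adjusted p 7.77e-05) and in the fit of all 35 libraries (adjusted p 0.00552). S100a9 was not (adjusted p 0.0659 and 0.0923). Csf3r was at 3.04 to 21.1 CPM in radiated and 0.645 to 2.27 CPM in control skin of week 2. In week 1 S100a9 was called by DESeq2 (adjusted p 0.00774) but not in the fit of all 35 (adjusted p 0.0577).

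The libraries of these weeks differed widely in calprotectin RNA. In week 1, S100a9 was at 0.0854, 40.7, 5.96 and 0.830 CPM in radiated replicates 1 to 4, and S100a8 at 0.171, 16.8, 5.04 and 0.0874 CPM. In week 2, S100a9 was at 0.486, 0.526, 3.07 and 16.0 CPM and S100a8 at 0.0442, 0, 2.21 and 6.32 CPM. Replicates 2 and 3 of week 1 and replicates 3 and 4 of week 2 were thus above all 19 libraries without radiation for both genes, and the other 4 were not.

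The same 4 libraries had the highest summed level of 16 keratinocyte stress genes, which include Krt6a, Krt6b, Krt16 and the small proline-rich genes and serve as signs of an activated epidermis. That sum was 402, 14960, 5542 and 1047 CPM in radiated replicates 1 to 4 of week 1 and 846, 995, 1869 and 15200 CPM in week 2, against 499 to 2679 CPM in sham skin, 565 to 670 CPM in control skin of week 1 and 595 to 1249 CPM in that of week 2. In the libraries where that sum was highest, some members were the highest of their group and others were not. In radiated replicate 2 of week 1 Csf3r was at 5.12 CPM, beside 4.61, 9.52 and 4.41 CPM in replicates 1, 3 and 4, Retnlg was at 0, and Ly6g at 0.108 CPM was the highest of its group but near the floor. Ngp and Acod1, both at 0.863 CPM, were the highest of their group there as well. In replicate 4 of week 2 Csf3r was at 8.12 CPM, beside 8.36, 3.04 and 21.1 CPM in replicates 1 to 3, while Ngp, at 1.52 CPM, was the highest of its group. Ly6g was at 0 in all 4 radiated libraries of week 2. In replicate 2 of week 1 and replicate 4 of week 2 Cxcr2 was the highest of its group, at 27.2 and 23.0 CPM. Of the stress genes 0 of 10 tested in week 1 and 0 of 11 in week 2 were called against control skin, and their part in the S100a8 and S100a9 levels was not tested.

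**Figure D4:**
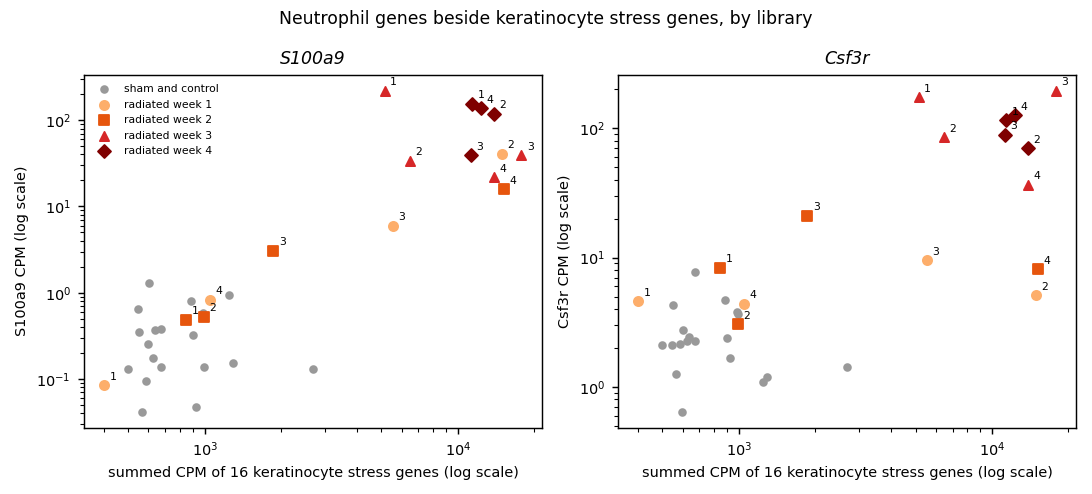
S100a9 (left) and Csf3r (right) in CPM against the summed CPM of 16 keratinocyte stress genes, both on log scales; grey points are sham and control libraries, coloured points are radiated libraries with their replicate number. Radiated libraries of weeks 1 and 2 with a high stress sum, such as week 1 replicate 2 at 14960 CPM, have high S100a9 (40.7 CPM in that library). Csf3r is at 5.12 CPM there. Whatever the stress sum, Csf3r in radiated libraries of weeks 1 and 2 (at most 21.1 CPM) is below that of weeks 3 and 4 (at least 36.5 CPM).

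Radiated skin of adjacent weeks was compared to place the change in time. Over the 32 radiated and control libraries, 7 of 8 tested members were higher in radiated skin of week 3 than of week 2, beside 10.9% of all genes. Acod1 rose by 6.17 (SE 0.88, adjusted p 2.12e-05), Csf3r by 3.61 (SE 0.55, adjusted p 4.10e-05) and Cxcr2 by 2.54 (SE 0.43, adjusted p 0.000136) on the log2 scale. S100a8 rose by 4.12 (adjusted p 0.00756), S100a9 by 3.99 (adjusted p 0.00802), Retnlg by 5.89 (adjusted p 0.00101) and Ngp by 4.04 (adjusted p 0.00692). Without the libraries numbered 1, 3 members were called, namely Csf3r, Cxcr2 and Acod1. S100a8 was then at 2.49 (adjusted p 0.0778), S100a9 at 2.28 (adjusted p 0.0967), Retnlg at 2.16 (adjusted p 0.180) and Ngp at -0.72 (adjusted p 0.502). Without the libraries numbered 3, S100a8 (adjusted p 0.0598) and S100a9 (adjusted p 0.0649) were not called, and Retnlg was at 8.52 and Acod1 at 7.39. Without the libraries numbered 4, S100a8 was at 5.89, S100a9 at 6.15, Cxcr2 at 3.16 and Ngp at 4.82. With the replicate number as a block, which joins different mice across weeks, the Ngp call was lost (3.16, adjusted p 0.0568).

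From week 1 to week 2, 0 of 8 tested members were called, and 0 had an unadjusted p under 0.05, beside 0.45% of all genes called higher and 14.8% with an unadjusted p under 0.05. From week 3 to week 4, 0 of 8 were called by edgeR and 1, Ngp, had an unadjusted p under 0.05 (log2 fold change -3.39, SE 1.03, adjusted p 0.126; 0.88 without the libraries numbered 1), beside 0.388% of all genes called higher and 12.7% with an unadjusted p under 0.05. Acod1 differed by -1.04 (SE 0.67, adjusted p 0.530) and S100a9 by 0.52 (SE 0.95, adjusted p 0.865) between these weeks.

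Whether the radiated-minus-control difference itself varied over the 4 weeks was tested on the 3 interaction terms of that fit together. Of 8 tested members, 3 passed, beside 15.6% of all genes: Csf3r (adjusted p 0.000455), Acod1 (adjusted p 0.000991) and Cxcr2 (adjusted p 0.00321). S100a8 (adjusted p 0.537), S100a9 (adjusted p 0.462), Ngp (adjusted p 0.0867) and Ltf (adjusted p 0.0602) did not pass. For S100a8 and S100a9, some radiated libraries of weeks 1 and 2 were already high, and libraries within a week differed widely. The part of either in these adjusted p-values was not tested. Retnlg had an adjusted p of 0.0738, and of 0.0386 with the mouse as a block. Cxcr2 lost its call in 2 of 4 fits that left out the libraries of a number, with an adjusted p of up to 0.0736 without the libraries numbered 1.

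Sham skin gave a reference from mice with no radiation at all, set against the same radiated libraries. In week 3, 6 of 7 members that passed the filter were higher than sham (10.4% of all genes called higher), and in week 4, 7 of 8 (15.2%). Acod1 was at 0 in the 3 sham libraries, which makes it at least 817-fold higher in week 3 and at least 392-fold higher in week 4, and Ly6g, at 0 there too, was at least 44.4-fold and 10.2-fold higher, with a floor of 3 counts over the sham group. In week 3, 182 of the 187 Ly6g counts were in radiated replicate 1, and without it the bound was 1.56-fold. The week 4 bound of Ly6g was 6.53-fold without radiated replicate 4. The floor rests on the 3 sham libraries, and without sham replicate 1 or 2 the bounds were 532-fold or 527-fold and 256-fold or 253-fold for Acod1, and 29.0-fold or 28.7-fold and 6.67-fold or 6.60-fold for Ly6g. Over sham, S100a9, at 0.132, 0.130 and 0.155 CPM in sham skin, differed by 9.14 (SE 1.21, adjusted p 0.00523) in week 3 and 9.65 (SE 0.67, adjusted p 0.000128) in week 4. S100a8, at 0.441, 0.347 and 0.206 CPM, differed by 6.80 (SE 1.03, adjusted p 0.00686) and 7.19 (SE 0.53, adjusted p 0.000143). Without radiated replicate 1 of week 3, the week 3 values were 7.82 for S100a9 (adjusted p 0.000769) and 5.60 for S100a8 (adjusted p 0.00323). Retnlg was called in week 3 (adjusted p 0.0301), a call lost without any 1 of the 3 sham libraries (adjusted p 0.0943 to 0.103). Ngp was not called in week 3 (adjusted p 0.0746) and was in week 4, at 2.80 (SE 0.53, adjusted p 0.00575; 0.110 in the fit of all 35 libraries).

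Against sham, Csf3r was the member called in weeks 1 and 2, 1 of 4 tested each time, beside 0.543% and 2.16% of all genes called higher. Sham skin had 2.12, 1.43 and 1.19 CPM, and radiated skin 4.61, 5.12, 9.52 and 4.41 CPM in week 1 and 8.36, 3.04, 21.1 and 8.12 CPM in week 2, with no overlap. The log2 fold changes of Csf3r were 1.89 (SE 0.39, adjusted p 0.0447) and 2.68 (SE 0.61, adjusted p 0.0415). Each call was lost in 5 of 7 fits that left out 1 library, with an adjusted p of up to 0.199 in week 1 and 0.179 in week 2, in both cases without sham replicate 3. The week 2 value was 2.04 (adjusted p 0.0766) without radiated replicate 3. S100a9 was not called in either week (adjusted p 0.130 and 0.0695 in edgeR), though it was with DESeq2 (0.00440 and 0.00267). Acod1 was at 0.0427, 0.863, 0.131 and 0.0874 CPM in week 1 and at 0.398, 0, 1.35 and 0.272 CPM in week 2, mostly near the floor. Control skin of irradiated mice was compared with the same sham libraries. Of the 2, 2, 2 and 3 members that passed the filter in weeks 1 to 4, 0 were called in every week, beside 4.92%, 2.44%, 11.4% and 3.65% of all genes called in either direction. Csf3r came nearest, in week 3, with 1.18 (SE 0.34, adjusted p 0.0582) in edgeR and an adjusted p of 0.0136 in DESeq2, and members with an unadjusted p under 0.05 numbered 0, 0, 1 and 1, beside 27.3%, 21.1%, 29.7% and 22% of all genes.

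Most other neutrophil genes listed were higher in the same weeks. Of 23 surface and signalling genes, Csf3r, Cxcr2 and Ly6g among them, 18 of 20 tested were higher in radiated skin in week 3 and 18 of 20 in week 4, with a median log2 fold change of 3.33 and 3.38, beside medians of 0.08 and 0.02 over all genes. Without radiated replicate 1 of week 3 it was 17 of 20, with a median of 2.72. The shares of all genes called higher, 13.6% in week 3 and 24.2% in week 4, are the background for this and each list that follows. Itgam, an integrin chain of myeloid cells, went from 69.3 ± 33.6 to 246 ± 117 CPM in week 3 (SD, n = 4 each; log2 fold change 1.86, adjusted p 0.0173). Hdc, the histamine-forming enzyme that mast cells also make, rose by 4.16 (adjusted p 0.000659) and Mxd1 by 1.76 (adjusted p 0.00418). Itgb2, the common integrin partner chain, rose by 1.77 (adjusted p 0.0225). The exceptions in both weeks were Il1r2 and Ltb4r1, at 0.80 (adjusted p 0.0981) and -0.39 (adjusted p 0.270) in week 3.

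Granule genes were counted by granule type. Of 5 primary granule genes, 0 of 3 tested in week 3 and 0 of 1 in week 4 were called. Mpo, the myeloperoxidase gene, was at 1.77 ± 0.452 CPM in radiated and 1.33 ± 0.841 CPM in control skin of week 3 (SD, n = 4 each; log2 fold change 0.43, adjusted p 0.497), and 2.64 ± 1.47 CPM in sham skin (SD, n = 3). Elane and Ctsg, the elastase and cathepsin G genes, were at most 0.114 and 0.266 CPM in any radiated library of week 3. Of 13 secondary and tertiary granule genes, 8 of 10 tested in week 3 and 10 of 10 in week 4 were higher, with medians of 4.75 and 3.76. Without radiated replicate 1 of week 3 it was 7 of 10, with a median of 3.05, and without control replicate 1 of that week 8 of 11, with a median of 6.22. Hp, the haptoglobin gene, rose from 84.3 ± 33.9 to 602 ± 319 CPM in week 3 (SD, n = 4 each; log2 fold change 2.87, adjusted p 0.00253), Mmp9, a gelatinase, by 4.12 (adjusted p 0.00287), Mmp8 by 5.93 (adjusted p 0.0227) and Lcn2 by 5.88 (adjusted p 0.00523). Retnlg, Ngp, Camp and Ltf are themselves in this list, Lcn2 is also in that of keratinocyte stress genes, and Cd177 in that of surface and signalling genes. Of 6 subunits of the NADPH oxidase, which makes superoxide, 5 rose in week 3 and 6 in week 4. The exception in week 3 was Cybb, at 0.33 (adjusted p 0.625), and in week 4 it rose by 2.23 (adjusted p 5.57e-05). Ncf1 lost its week 3 call in 5 of 8 fits that left out 1 library.

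Among 15 neutrophil chemoattractants and growth factors, 9 of 14 tested rose in week 3 and 11 of 14 in week 4. Without radiated replicate 1 of week 3 it was 8 of 14, and the median log2 fold change went from 4.05 to 2.91. Cxcl2, a ligand of CXCR2, went from 0.254 ± 0.152 to 66.6 ± 34.7 CPM in week 3 (SD, n = 4 each; log2 fold change 8.07, adjusted p 0.000506). Cxcl5, another ligand, rose by 4.99 (adjusted p 0.00175) and Il1b by 4.49 (adjusted p 0.00164). Csf1, which acts on macrophages, was at -0.19 (adjusted p 0.551) in week 3. In week 4 Csf1 was among the 11 that rose, a call lost in 0 of 8 fits that left out 1 library. Of 7 differentiation factors, 3 of 6 tested rose in week 3, namely Runx1, Spi1 and Cebpb, with changes of 1.34, 2.06 and 1.03, and Cebpa was at -0.49 (adjusted p 0.177). In week 4 Cebpa was lower by -0.76 (adjusted p 0.00232), while the same 3 factors were higher. In week 3, 1 of the 6 rose without control replicate 4.

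The other S100 genes gave mixed directions. Of 15 other members, 1 of 11 tested was higher in week 3 and 2 were lower, and in week 4 it was 4 and 1, beside 27.2% and 48.4% of all genes called in either direction. These shares are close to the background. In 4 of 8 fits of week 3 that left out 1 library it was 0 higher and 2 lower, among them that without radiated replicate 1. S100a7a was the higher one in week 3, by 1.98 (adjusted p 0.0290), and S100b (-1.57, adjusted p 0.00458) and S100a1 (-0.78, adjusted p 0.0105) were the lower ones. S100a14, S100a11, S100a10 and S100a16, the most abundant of the family in radiated skin, were not called in either week. Of 8 receptors and adaptors of calprotectin, 4 rose in week 3 (Cd14, Cd33, Ager and Myd88) and Cd36 fell by 0.86 on the log2 scale (adjusted p 0.0419), a call lost in 7 of 8 fits that left out 1 library. Cd14, the co-receptor of TLR4, had the largest of these changes, 3.66 (adjusted p 0.00260), and Tlr4 itself was at 0.66 (adjusted p 0.202) in week 3 and 0.98 (adjusted p 0.000140) in week 4. Of 7 genes of itaconate and inflammatory macrophages, Acod1 among them, 6 rose in each of weeks 3 and 4. Without radiated replicate 1 of week 3 it was 5, and the median log2 fold change went from 3.82 to 2.51. Sod2 lost its week 3 call in 7 of 8 fits that left out 1 library. Slc7a11, a cystine transporter, rose by 4.03 (adjusted p 0.000641), Il6 by 4.43 (adjusted p 0.00325) and Ptgs2 by 2.86 (adjusted p 0.00440) in week 3, and Tnf was at 1.36 (adjusted p 0.0509). Of the listed genes named as changed in week 3, calls were also lost when leaving out 1 library for Ager (6 of 8 fits), Itgb2, Cebpb and S100a7a (4 of 8 each), Mmp8 (3 of 8), and Itgam and Spi1 (1 of 8 each).

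Markers of other cells moved in the same weeks. Macrophage and monocyte genes, 13 in all, summed to 1479 to 3694 CPM in radiated skin of week 3 and 585 to 1623 CPM in control skin, with 8 of 13 called higher (4 of 13 without radiated replicate 1 or 3, 5 of 13 without control replicate 1 or 3 and 2 of 13 without control replicate 4), and to 1825 to 2573 against 345 to 549 CPM in week 4, with 13 of 13 higher. None of the 13 was at 0 in a whole group. The 16 keratinocyte stress genes summed to 5145 to 17870 CPM in radiated and 881 to 992 CPM in control skin of week 3, where 3 of the 16 were at 0 in all controls, and 12 of 13 tested were higher. In week 4 they summed to 11240 to 13920 against 543 to 635 CPM, and 14 of 14 were higher. Skeletal muscle genes went the other way, with 6 of 7 lower in week 3 and 5 of 7 in week 4 (2 of 7 with the mouse as a block), beside 13.6% and 24.2% of all genes called lower. Mast cell genes, 8 in all, summed to 45.9 to 100.3 CPM in radiated and 20.1 to 32.6 CPM in control skin of week 3, and to 97.9 to 139 against 35.1 to 41.4 CPM in week 4, with 5 of 7 (3 of 7 without control replicate 4 of week 3) and 7 of 8 tested higher and none at 0 in these groups. T cell genes were higher in 2 of 7 (1 of 7 in 7 of 8 fits that left out 1 library) and 3 of 8 (1 lower in week 4), not far from the background, and red blood cell genes in 0 of 5 and 0 of 6. The 4 pan leukocyte genes were higher in 4 of 4 in both weeks and summed to 322 to 1045 against 117 to 247 CPM in week 3 and 418 to 598 against 96.7 to 120.5 CPM in week 4. Of 7 keratinocyte genes, 1 was higher and 1 lower in week 3 (3 lower without radiated replicate 4), and 2 were higher and 4 lower in week 4. Fibroblast genes were higher in 1 of 6 and 6 of 6, and their sum in week 4 was 27900 to 47070 CPM in radiated and 2207 to 4634 CPM in control skin. Genes of endothelium and adhesion were higher in 5 of 7 and 7 of 7, platelet genes in 4 of 5 and 4 of 4 (2 of 5 in week 3 with the block or without radiated replicate 2; Pf4 and Ppbp are also in the list of chemoattractants), and hair follicle genes in 0 of 7 and 6 of 8 (3 of 8 with the block, and 3 of 8 in 4 of 8 fits that left out 1 library), with 1 lower in each week (2 in each with the block). In week 2, pan leukocyte genes summed to 116 to 388 CPM in radiated and 50.3 to 107 CPM in control skin. Macrophage and monocyte genes summed to 758 to 3215 against 304 to 829 CPM in that week, and T cell genes to 44.2 to 49.3 against 34.2 to 48.7 CPM. The part of these cells in the levels of the neutrophil genes was not tested.

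The genes whose pattern over the 35 libraries was most like that of a member were taken by Pearson correlation of log2 CPM, with a minimum mean level of 1 CPM and with the 10 members left out of the search. Among members, S100a8 was most like S100a9 (0.956) and Cxcr2 (0.935). This describes libraries that share groups and scaling, and carries no test. For S100a8 they were Cd101 (0.905), Glrx (0.903), Clec4d (0.892), Gsta4 (0.892) and Sprr2d (0.891), where Clec4d is a lectin receptor of myeloid cells and Sprr2d a cornified envelope gene of keratinocytes. For Csf3r they were Itgal (0.971), Srgn (0.964), Hdc (0.959), Fxyd5 (0.957) and Fgr (0.956), and for Cxcr2 they included Tnfrsf26 (0.941), Gsap (0.937), Trpm2 (0.937) and Entpd7 (0.936). For Acod1 they included Trem1 (0.952), Hdc (0.949), Srgn (0.946) and Cxcl2 (0.945). Itgal, Srgn, Fgr and Trem1 are leukocyte genes.

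Ltf, the lactoferrin gene, was the member whose highest libraries were not radiated. It stood at 13.8 CPM in control replicate 4 of week 2, at 12.2 CPM in control replicate 1 of week 4, at 2.99 CPM in control replicate 1 of week 2 and at 1.58 CPM in control replicate 1 of week 1. In the other 12 control libraries it was at most 0.538 CPM, with a median of 0. Among radiated libraries the highest was replicate 1 of week 3, with 4.25 CPM, and no radiated library exceeded the highest library without radiation. Ltf did not pass the filter in radiated against control skin. In edgeR without the filter its log2 fold change was 4.28 in week 3 (adjusted p 0.0250) and -3.42 in week 4 (adjusted p 0.0829).

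Over the 35 libraries Foxa1, Krt18 and Dmbt1 were among the 5 genes most like Ltf, with correlations of 0.740, 0.660 and 0.635. They and Krt8 were chosen after their values were seen, so high values in the control libraries with much Ltf follow from the choice, and the source of the Ltf reads was not tested. Krt8 and Krt18, keratins of simple epithelium, were at 43.1 and 38.9 CPM in control replicate 4 of week 2, and Foxa1, a transcription factor of luminal epithelium, at 20.7 CPM. In the 4 control libraries named, Krt18 lay between 4.14 and 38.9 CPM and Foxa1 between 1.77 and 20.7 CPM. In the other 12, Krt18 reached at most 0.967 CPM and Foxa1 0.884 CPM. Krt18 was at 2.60 and 2.12 CPM in sham replicates 2 and 3, where Ltf was at 0, and Dmbt1, a secreted protein of mucosal epithelium, was at 3.74 CPM in control replicate 4 of week 1, where Ltf was at 0.0420 CPM, and at 3.12 CPM in replicate 1. Krt8 lay between 2.84 and 43.1 CPM in the 4 and reached at most 2.23 CPM in the other 12. In radiated replicate 1 of week 3, Krt18 was at 1.14 CPM, Foxa1 at 0.686 CPM and Krt8 at 2.33 CPM, where Krt18 and Krt8 were above those 12 controls and Foxa1 was not. Krt18 was above them too in radiated replicate 4 of week 3 (1.06 CPM) and replicates 3 and 4 of week 4 (1.59 and 1.34 CPM). Ltf was only at 0.276, 0.335 and 0.268 CPM in those libraries.

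**Figure D5:**
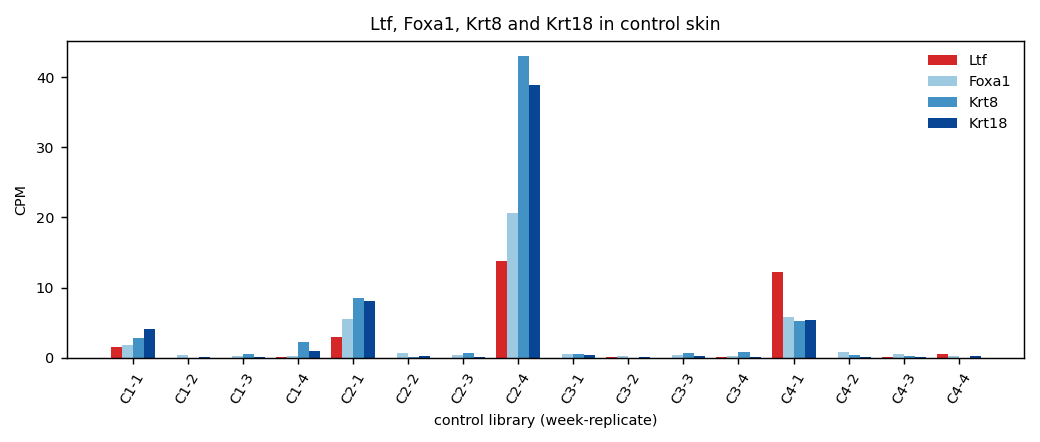
Ltf beside Foxa1, Krt8 and Krt18 in the 16 control libraries, in CPM, with each library named by week and replicate. The 4 libraries with Ltf of 1.58 to 13.8 CPM are those where Krt18 is 4.14 CPM or more; the other genes were chosen with these values known, and the source of the Ltf reads was not tested.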

How the data were processed

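Total RNA of 35 skin biopsies had been extracted with a column kit and sequenced by a provider, per the labels' protocols. The authors deposited 1 table of estimated counts, with a row per gene and no scaling between libraries. They used Kallisto and DESeq2 per the labels' protocols, and Trim Galore 0.6.7, kallisto 0.46.2 and the build mm10 per the submitters' processing notes. The transcriptome release and the step from transcripts to genes are not given in the sources used here. Between 29.5% and 32.5% of a library's values were not whole, and they were rounded here.

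Genes were filtered with filterByExpr, scaled with TMM factors and tested with edgeR 4.0.16 (quasi-likelihood F test, Benjamini-Hochberg adjustment over all tested genes, threshold 0.05) in R 4.3.3, each pair of groups on its own, and the time course in 1 fit of the 32 radiated and control libraries. Standard errors are the size of the log2 fold change divided by the square root of F. Levels in CPM were computed from TMM-scaled totals, and a prior count of 2 was added for log2 values. Exon lengths are the union of GENCODE M21 exons on GRCm38, the assembly also called mm10. The script was tested on simulated data: for radiated against control skin of week 3, with 17406 genes in the fit, 89.6% of 67 genes raised 4-fold and 100% of 66 genes raised 16-fold were recovered, with 6 false calls. For radiated against sham skin of week 3 these shares were 73.1% and 98.5%. The changed genes were drawn from those with a mean above 1 CPM, so recovery of members near the floor in control or sham skin was not covered.

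Replicates are mice. A radiated and a control library of a week and number were paired as the same mouse, since the design text gives 19 mice for 35 libraries and the library names differ by a letter. The mean correlation of their deviations over 19813 genes was 0.07, 0.17, 0.05 and -0.02 in weeks 1 to 4, against -0.02, -0.06, -0.02 and 0.01 for other numbers. The pairing was not in the main test and was tried as a block. Between radiated weeks and against sham skin, where no mouse is shared, the block was the replicate number.

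The 10 members were reported whatever their values. From each gene list the up to 4 genes with the highest mean CPM over the 16 radiated libraries could be named, others only with their list's count, and the 5 genes most like a member were taken for S100a8, Csf3r, Cxcr2 and Acod1, of which 1 gene is not reported here. Members and lists were chosen with earlier results of these data known. Il36a and Il36g were found under older symbols through RefSeq synonyms. Alternatives were DESeq2 1.42.0 (Wald test and size factors), total-count scaling, no filter, a fit of all 35 libraries, the block and leaving out each library. No 2 libraries were identical.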

Additional observations from a re-analysis of the deposited data

Results flagged for a closer look

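Values of the 10 genes were screened in the 8 groups of 4 libraries for a library whose gap to its nearest neighbour made up nearly the whole range of its group (Dixon's criterion at the 95% level). This marked 19 of 80 gene and group combinations, 76 of which held values that were not all equal. Chance marks about 1 in 20, and many levels lie near the floor. Sham skin, with 3 libraries, was not screened.

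Radiated replicate 1 of week 3 was high for S100a8 (99.5 CPM), S100a9 (220 CPM), Ly6g (8.32 CPM), Retnlg (79.0 CPM), Ngp (56.2 CPM) and Ltf (4.25 CPM). In radiated skin of weeks 1 and 2, S100a9 was high in week 1 replicate 2 (40.7 CPM, next 5.96 CPM) and in week 2 replicate 4 (16.0 CPM, next 3.07 CPM). Acod1 was high in week 1 replicate 2 (0.863 CPM), Csf3r in week 1 replicate 3 (9.52 CPM), Retnlg in week 2 replicate 3 (1.17 CPM), and Camp in week 1 replicate 3 (0.261 CPM) and week 2 replicate 1 (0.177 CPM), where the other libraries of Camp were at 0.

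In control skin, Ltf was high in week 1 replicate 1 (1.58 CPM) and week 4 replicate 1 (12.2 CPM). Week 1 replicate 3 was high for Csf3r (7.78 CPM) and S100a8 (0.382 CPM), and week 2 replicate 4 for Acod1 (0.730 CPM). S100a8 was low in week 4 replicate 1, at 0 CPM, where the other libraries held at least 0.752 CPM.

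A difference between weeks in the radiated-minus-control effect passed the interaction test for Csf3r (adjusted p 0.000455 in edgeR), Cxcr2 (adjusted p 0.00321) and Acod1 (adjusted p 0.000991).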

How the results depend on the processing

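The number of called members in radiated against control skin was 6 in week 3 and 7 in week 4, and between 6 and 9 under every alternative run. The genes were not always the same: DESeq2 gave no adjusted p for Retnlg in week 3, and Ltf (0.00107) was among its 6. Counts that moved by more than 1.5 times were these. Against control skin, week 1 had 0 called members, and 1 with the DESeq2 Wald test, and week 2 had 0, and 2 with the replicate block, 1 with DESeq2 and 1 in the fit of all 35 libraries. Against sham, week 1 had 1 called member, and 0 with total-count scaling, 0 with the replicate block and 2 with DESeq2. Week 2 had 1, and 2 without the filter, 0 with the replicate block, 3 with DESeq2 and 3 in the fit of all 35 libraries. Control against sham skin of week 3 had 0, and 1 with DESeq2. Smaller moves were from 6 to 7 without the filter (Ltf, 0.0388) and 8 in the fit of all 35 (Ly6g, 0.0269, and Ngp, 0.000892) against sham in week 3, from 7 to 8 with DESeq2 and 6 in the fit of all 35 in week 4, from 3 to 4 with the block for the interaction, and from 7 to 8 without the filter, 8 in the fit of all 35 and 6 with the block for radiated week 3 against week 2. When leaving out a library, the number ranged from 0 to 1 in weeks 1 and 2 against control skin, 6 to 7 in weeks 3 and 4, 0 to 1, 0 to 2, 5 to 7 and 7 to 7 against sham, 0 to 1 for control against sham in week 3, 2 to 3 for the interaction and 3 to 8 for radiated week 3 against week 2. Directions turned for values that were not called, and for 1 that was: Ngp in radiated week 3 against week 2, from 4.04 to -0.716 without the libraries numbered 1 (range when leaving out libraries -0.716 to 4.82). The others, with their ranges when leaving out libraries, were Ngp in radiated against control skin of week 1 (-0.733 to 0.062), Csf3r in control against sham skin of week 2 (-0.495 to 0.128), Cxcr2 in that of week 4 (-0.002 to 0.177) and of week 2 (-0.023 with total-count scaling, -0.004 with the replicate block), in radiated week 2 against week 1 S100a8 (-3.21 to 0.672), S100a9 (-3.47 to 1.49), Cxcr2 (-0.656 to 0.659), Retnlg (-0.581 to 2.52), Ltf (-0.830 to 0.732) and Acod1 (-0.379 to 2.90), and in week 4 against week 3 S100a8 (-0.032 to 1.49), Csf3r (-0.719 to 0.071), Cxcr2 (-0.412 to 0.456, and 0.006 with the replicate block), Retnlg (-2.37 to 1.38) and Ngp (-3.90 to 0.884). The cause was not tested. DESeq2 was not run for comparisons between weeks.

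Over all genes, counts of calls moved by more than 1.5 times as follows. Against control skin, week 1 went from 0 to 424 with DESeq2 and 23 in the fit of all 35 libraries, and week 2 from 1 to 2 without the filter, 641 with the replicate block, 710 with DESeq2 and 544 in the fit of all 35. Against sham, week 1 went from 319 to 561 without the filter, 126 with the block, 1210 with DESeq2 and 1224 in the fit of all 35, week 2 from 912 to 497, 2439 and 3257 with the last 3 of these, week 3 from 3308 to 6402 in the fit of all 35, and week 4 from 4899 to 3160 with the block. Control against sham went from 881, 435, 2036 and 655 in weeks 1 to 4 to 0, 1, 477 and 97 with the block and 2878, 1901, 3453 and 1818 with DESeq2, and in week 2 to 734 without the filter and 1559 in the fit of all 35. Radiated week 2 against week 1 went from 112 to 27 without the filter, 32 with total-count scaling and 195 with the block, and week 4 against week 3 from 91 to 179 with the block. Leaving out a library gave 0 to 232 and 0 to 206 genes in weeks 1 and 2 against control skin, 1 to 543, 107 to 1398 and 1134 to 3965 in weeks 1 to 3 against sham, 0 to 1803, 0 to 2199, 629 to 2438 and 0 to 1705 in weeks 1 to 4 for control against sham, 960 to 1782 in place of 3013 for the interaction, and between radiated weeks 0 to 237 (2 against 1), 2176 to 4352 in place of 4729 (3 against 2) and 1 to 110 (4 against 3). The shares of all genes in those comparisons move alike.

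Between radiated and control skin, the replicate block changed no other call of a member than those given beside the results. Sham libraries share only a number with the others: deviations correlated at -0.26 with same-numbered controls of week 1 and at -0.11 in week 2. Total-count scaling turned the calls of radiated against sham skin in week 2 from 389 higher and 523 lower to 277 and 688, and those of control against sham from 586 and 295 to 361 and 469 in week 1, 245 and 190 to 198 and 322 in week 2, and 927 and 1109 to 571 and 1951 in week 3. Levels under 0.175 CPM, which include most values of Ly6g and Camp, are limited by depth.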
